A study of Mus musculus with 6 samples.

Results

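The 47 genes described here copy the genome or prepare it for copying: 11 for origin recognition and licensing, 6 for helicase activation, 5 for the sliding clamp and its loader, 6 for DNA polymerases and primase, 4 for single-strand binding and Okazaki fragment joining, 5 for nucleotide supply, 3 for the G1/S switch, 3 for fork protection and replication control, and 4 for copying chromatin. They were chosen by symbol among 26130 rows of gene counts, each matched 1 row, and all 47 passed the filter on low counts in both comparisons. The RNA came from mouse skeletal stem cells (mSSCs), progenitors of cartilage, bone and stroma, which were sorted from the Achilles tendon-to-bone interface of C57BL/6 mice at day 7. There were 3 libraries after a partial injury of the interface (injured), 2 after a sham operation (sham control) and 1 labelled uninjured, whose description field calls it a sham. No allele or further agent is named for any group. The sources used here give neither the age of the mice nor the surface markers of the sort, nor do they say whether a library is 1 animal or a pool. The p-values therefore rest on differences among these libraries, part of which may be technical.

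Replication starts in G1, when the origin recognition complex, Cdc6 and Cdt1 load the MCM helicase onto DNA. At the start of S phase kinases, Cdc45 and the GINS complex switch the helicase on, polymerases and the clamp PCNA follow it, and E2F transcription factors, released from Rb by cyclin-dependent kinases, drive the transcription of many of the genes involved. Resting cells keep many of these transcripts low, and stem cells that re-enter the cycle make them before dividing.

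Most replication genes had higher levels in the injured cells than in both control groups, and no single gene passed edgeR's adjusted threshold. The mean over the 47 genes of log2(CPM + 1), where CPM, the count's share of the library, is scaled between libraries by TMM, was 4.22 ± 0.06 (SD, n = 3) in injured and 3.24 ± 0.14 (SD, n = 2) in sham control cells. By library it was 4.29, 4.19 and 4.17 in injured 1, 2 and 3, 3.34 and 3.14 in sham control 1 and 2, and 2.24 in the uninjured library. By that mean the injured libraries lay close together and above every control. Their median CPM over the 47 genes differed more, at 32.5, 17.7 and 16.4 in injured 1, 2 and 3. The uninjured library was the lowest by either measure, with a median of 3.85 CPM. In sorted bulk RNA, fewer cells in S phase and less of these transcripts per cell cannot be told apart.

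**Figure D1:**
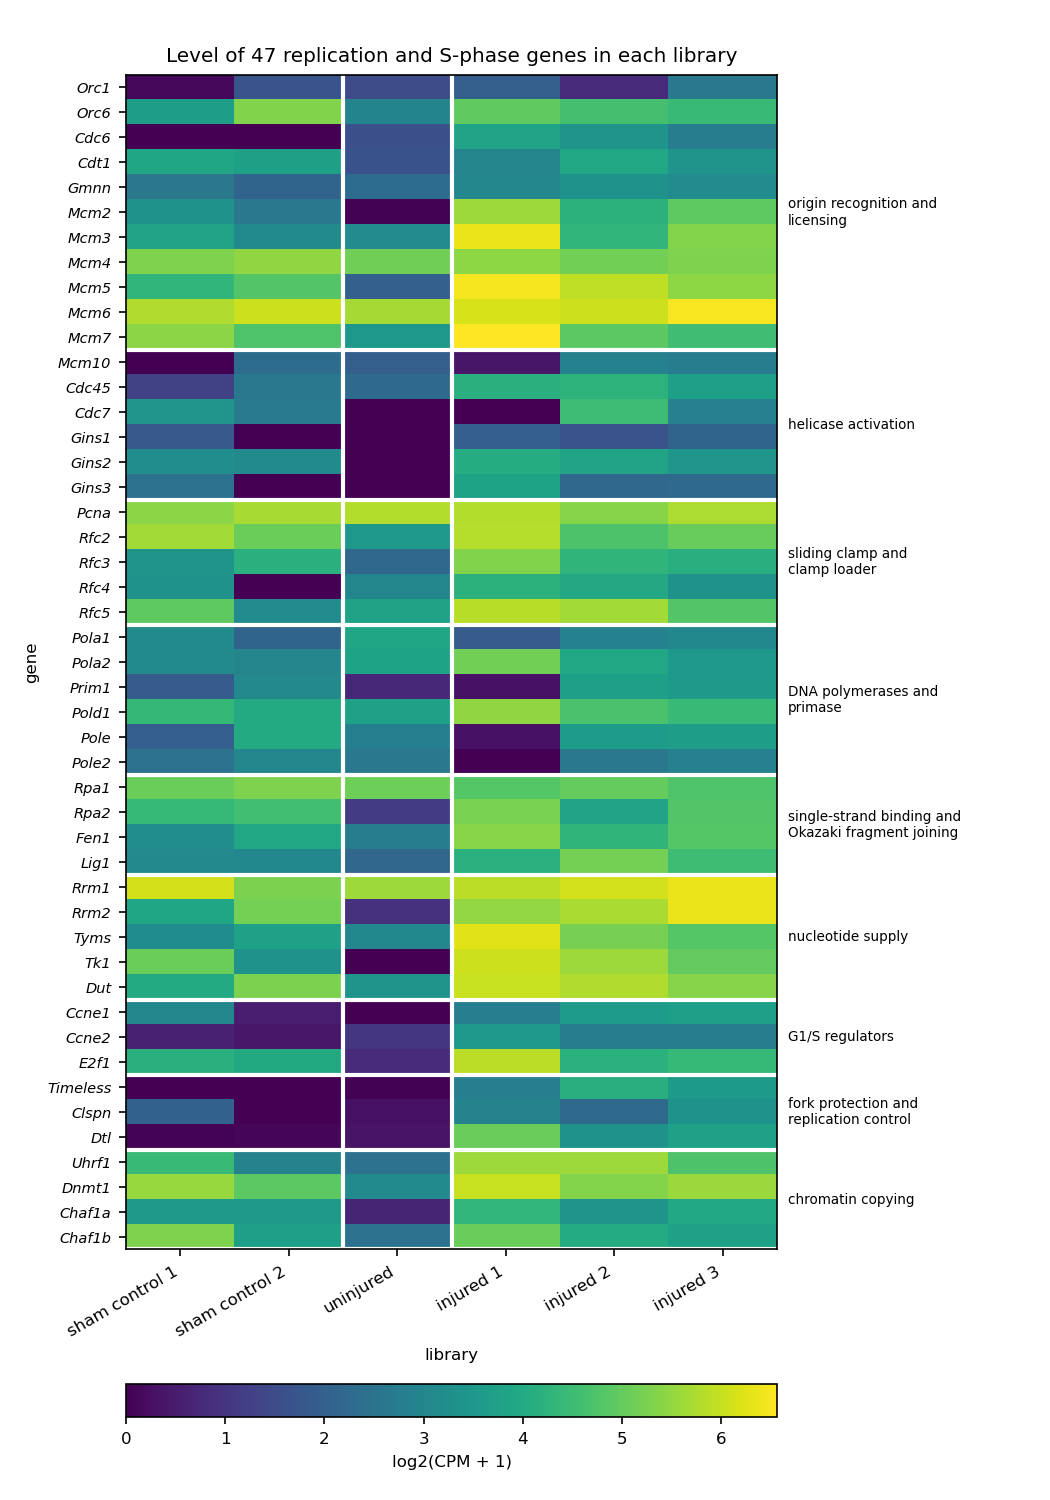
Level of each of the 47 genes (rows, grouped by role) in each library (columns), as log2(CPM + 1) on the colour scale. The uninjured column is darkest, with 6 genes at a count of 0, as many as in sham control 2. An injured library is the brightest in 40 of 47 rows. In injured 1, 5 genes are under 0.5 CPM.

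Total counts ran from 37506188 (uninjured) to 51089267 (injured 2), and 14183 to 17281 genes had a count. Each library started from 150 pg of total RNA, so a rare transcript can be missing from a library by chance of amplification, and reads carry no molecular identifiers. Of the surface genes used to define mSSCs, Itgav stood at 31.1 to 116 CPM and Cd200 at 31.0 to 160 CPM across the 6 libraries. Genes usually selected against were present in some: the highest library stood at 201 CPM for Eng, 61.7 for Tek, 24.8 for Ptprc, 16.1 for Enpep and 14.3 for Thy1. Tek was counted in all 6 libraries. Sham control 2 had no count of Eng, Ptprc or Enpep.

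Against sham control, 39 of 47 genes had a log2 fold change above 0, against 53.7% of all 16752 genes tested. The median log2 fold change was 1.01, against 0.09 over all genes. The 2 members with no count in sham control have lower bounds far above that median, so it cannot depend on their fitted values. The gap to all genes was smaller with 1 sham control library: 0.90 against 0.26 without sham control 1 and 0.71 against 0.30 without sham control 2. For 22 genes all 3 injured libraries exceeded both sham control libraries (11.9% of all genes), and for 1, Rpa1, all lay below (9.12% of all genes). By edgeR's quasi-likelihood test 0 genes passed an adjusted p of 0.05 (0% of all genes; the members' adjusted p ran from 0.696 to 1), and 9 had an unadjusted p under 0.05, all higher in injured (2.44% of all genes were higher and 2.2% lower). DESeq2 called 4, all higher: Cdc6, Ccne2, Timeless and Dtl (of all genes 1.43% were called higher and 0.77% lower). A log2 fold change above 1 was seen in 24 members and above 2 in 9, against 21.3% and 13.5% of all genes. Limma-voom called 0 (0.00597% of all genes), as did edgeR without the filter (0.0155%). The 9 became 5 without injured 1, in a fit where 2.32% of all genes were higher.

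**Figure D2:**
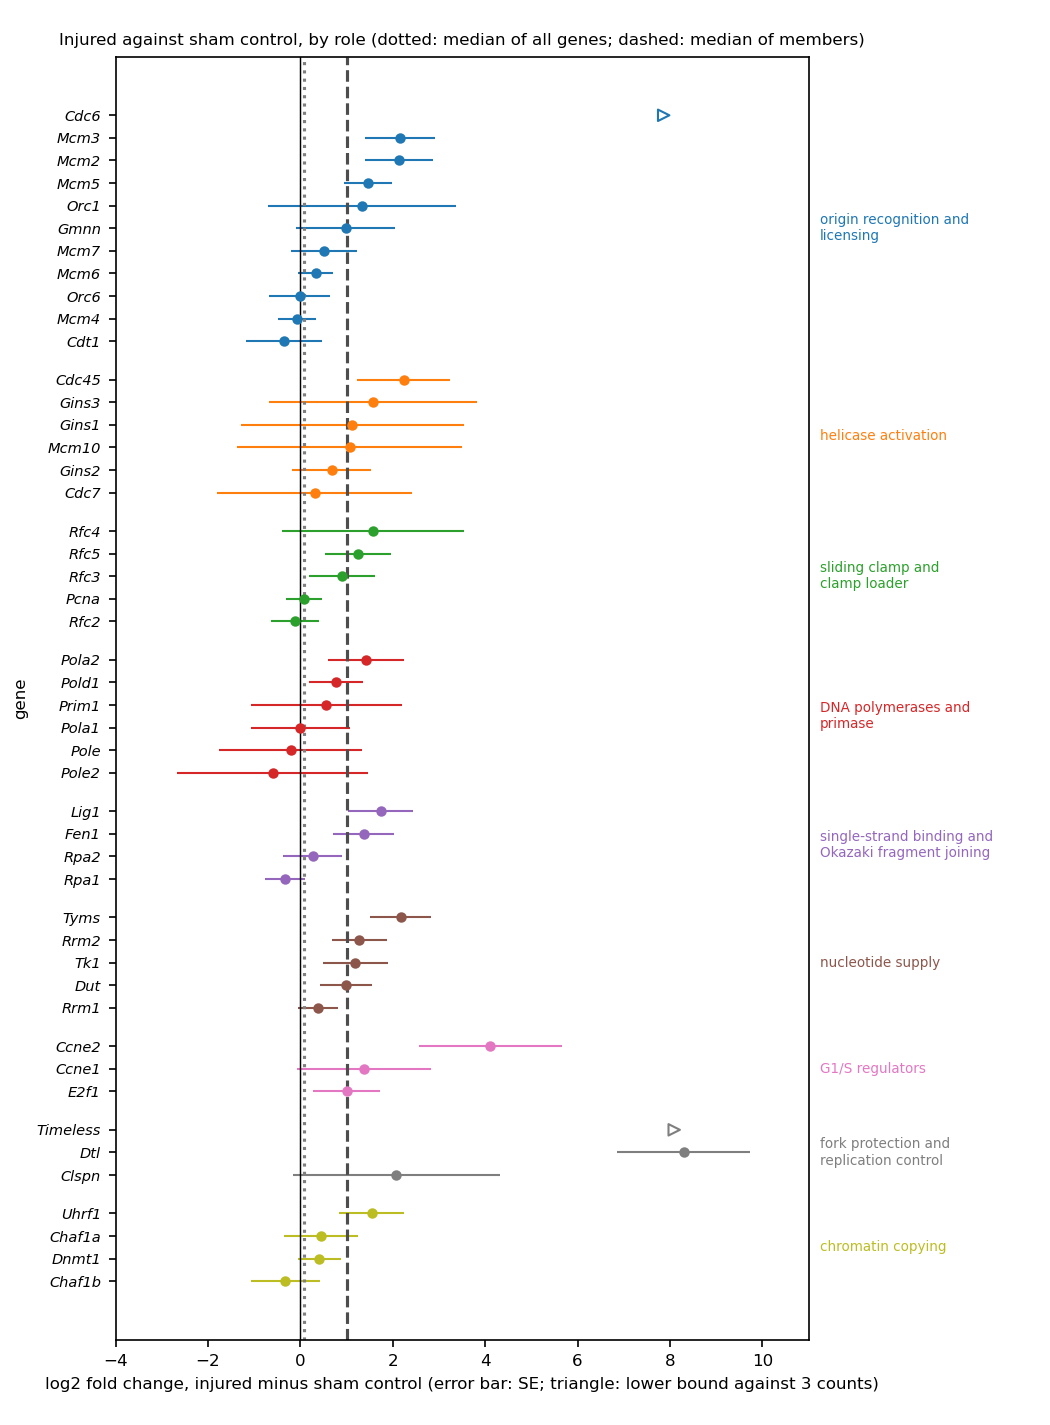
Log2 fold change of injured against sham control for each gene, by role, with its SE from edgeR; open triangles are lower bounds for Cdc6 and Timeless, which had no count in sham control. The dashed line is the median of the 47 genes (1.01) and the dotted line that of all genes tested (0.09).

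Members differed widely in how far injured and control cells stood apart. A first set was close to silent in sham control: Cdc6, Timeless, Dtl and Ccne2. A second set, with Mcm2, Mcm3, Mcm5, Cdc45, Tyms, Lig1, Fen1 and Uhrf1, was counted in both sham control libraries and had 2.59 to 4.72 times the sham mean in injured cells. Another 15 genes had log2 fold changes between -0.5 and 0.5, among them the clamp gene Pcna, Mcm4, Mcm6, Rpa1 and Rrm1. These sets were read off the values and carry no test.

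Of the 11 origin licensing genes, 4 had an unadjusted p under 0.05, all higher (2.44% of all genes were). All injured libraries exceeded both sham control libraries for 6 of them (11.9% of all genes). Cdc6, the ATPase that brings the MCM helicase to the origin, had a count of 0 in both sham control libraries, stood at 2.02 CPM in the uninjured library and at 13.1, 9.63 and 5.89 CPM in injured 1, 2 and 3. Its injured mean was at least 233-fold above the floor of 3 counts over the sham control group (edgeR unadjusted p = 0.00214; DESeq2 adjusted p = 1.79e-06), a bound that covers counting error only. Against all 3 non-injured libraries, where the uninjured one has 83 counts, its log2 fold change was 3.81 ± 2.25 (SE; edgeR unadjusted p = 0.133).

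The subunits of the MCM2-7 ring, which are loaded as 1 complex, differed unevenly between the groups. Mcm2 stood at 9.33 and 5.19 CPM in sham control, at 0.0243 (1 count) in the uninjured library and at 48.0, 17.7 and 29.9 in injured 1, 2 and 3, a log2 fold change of 2.13 ± 0.74 (SE; edgeR unadjusted p = 0.0243). Mcm3 stood at 13.2 and 7.79 CPM in sham control, at 7.94 in the uninjured library and at 81.5, 19.1 and 39.6 in injured, a log2 fold change of 2.15 ± 0.76 (SE; edgeR unadjusted p = 0.0257). Mcm5 stood at 19.0 and 27.0 CPM in sham control, at 3.07 in the uninjured library and at 88.7, 59.8 and 42.4 in injured, a log2 fold change of 1.47 ± 0.51 (SE; edgeR unadjusted p = 0.0249). For these 3 subunits no injured library overlapped a control. Mcm4, in contrast, stood at 38.1 and 43.8 CPM in sham control, at 34.2 in the uninjured library and at 43.0, 35.0 and 38.6 in injured, with the groups overlapping. Mcm6 had all injured libraries above the controls by a small margin (66.0 to 88.8 against 50.3 to 65.3 CPM). For Mcm7 the groups overlapped, and injured 1, at 93.6 CPM, was far above injured 2 and 3, at 29.2 and 22.5.

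Levels of different genes can be compared only per length, here as CPM per kilobase of the longest coding transcript of GENCODE M21. On that scale the highest of the 6 subunits exceeded the lowest 5.08-fold in sham control 1 and 9.74-fold in sham control 2, and 2.64-fold, 3.37-fold and 2.68-fold in injured 1, 2 and 3. The lowest was Mcm2 in all 3 control libraries and in injured 2, while it was Mcm4 in injured 1 and Mcm7 in injured 3. The ring subunits were thus at more even levels in the injured libraries than in sham control, by values of 3 and 2 libraries with no test.

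**Figure D3:**
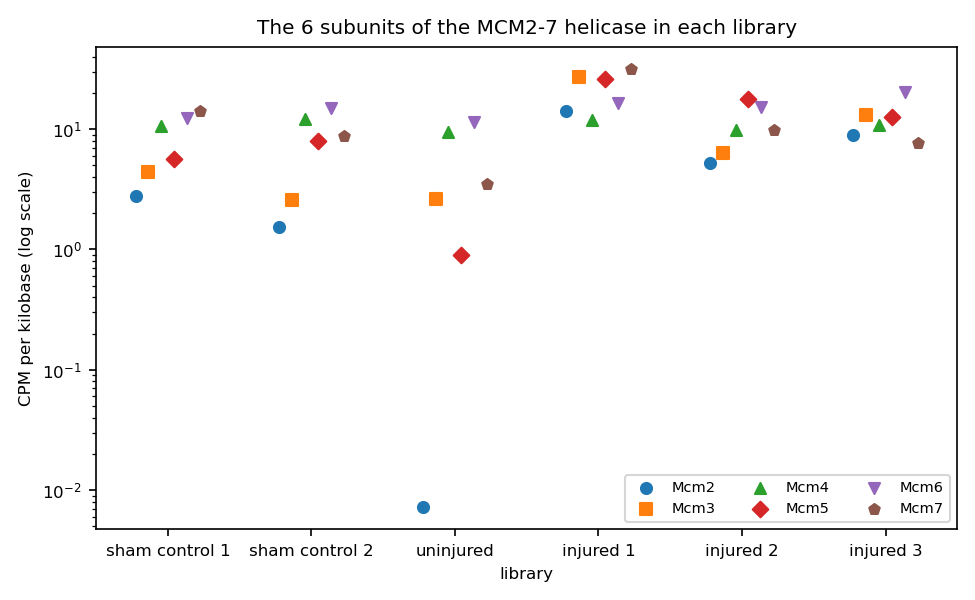
CPM per kilobase of transcript (log axis) of the 6 MCM2-7 subunits in each library. Mcm2 is lowest in the control libraries, at 1 count in the uninjured one, and the 6 points draw together in the injured libraries.

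Of the remaining licensing genes only geminin separated the groups. Geminin (Gmnn), the inhibitor of Cdt1, stood at 7.26, 9.41 and 8.03 CPM in injured 1, 2 and 3 against 5.03 and 3.31 in sham control and 3.99 in the uninjured library, with no overlap. Cdt1, the loading factor that geminin holds, had injured values of 6.92 to 14.2 CPM, which spanned both sham control values of 13.8 and 12.2. The origin recognition subunits Orc1 and Orc6 overlapped between groups, with Orc1 at 0.108 CPM in sham control 1 and 2.24 in sham control 2.

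The helicase is switched on by Cdc45, the GINS proteins, Mcm10 and the kinase Cdc7. All 6 of these genes had a log2 fold change above 0 (53.7% of all genes). In edgeR 0 had an unadjusted p under 0.05 (2.44% of all genes were higher). Cdc45 stood at 1.43 and 5.19 CPM in sham control, at 3.85 in the uninjured library and at 17.0, 17.8 and 12.0 in injured, a log2 fold change of 2.24 ± 1.01 (SE; edgeR unadjusted p = 0.0640). Gins2 stood at 8.38 and 7.70 CPM in sham control, at a count of 0 in the uninjured library and at 15.7, 13.3 and 9.74 in injured (log2 fold change 0.68 ± 0.86, SE; edgeR unadjusted p = 0.453). Both genes kept all injured libraries above all controls. Gins3 stood at 4.57 CPM in sham control 1, at a count of 0 in sham control 2 and the uninjured library, and at 12.9, 3.63 and 3.83 in injured (log2 fold change 1.57 ± 2.25, SE; edgeR unadjusted p = 0.507). Gins1 was also at 0 in sham control 2 and the uninjured library and stood at 2.20 to 3.34 CPM in injured. Gins1, Gins2 and Gins3 were at 0 in the uninjured library, whereas Gins4, the remaining subunit and not one of the 47 genes, stood there at 34.6 CPM, above its 15.8 and 19.3 in sham control. Of the 47 genes 6 were at 0 in the uninjured library, the others being Cdc7, Tk1 and Ccne1, and 6 were at 0 in sham control 2. A count of 0 in the uninjured library allows up to 0.0730 CPM by counting error alone.

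Pcna, the ring that tethers polymerases to DNA and a common marker of cycling cells, overlapped between the groups. It stood at 42.2 and 51.4 CPM in sham control, at 54.6 in the uninjured library and at 55.1, 40.1 and 53.3 in injured, a log2 fold change of 0.08 ± 0.40 (SE; edgeR unadjusted p = 0.845). The sign of that change turned without sham control 1 and without injured 1. Its level was the highest of the sliding clamp group per length in sham control, at 30.8 ± 4.28 CPM per kilobase (SD, n = 2).

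The clamp loader genes Rfc3, Rfc4 and Rfc5 had higher injured means, and Rfc2 did not. Rfc5 stood at 29.6 and 7.95 CPM in sham control, at 12.6 in the uninjured library and at 57.3, 49.3 and 26.9 in injured, a log2 fold change of 1.25 ± 0.71 (SE; edgeR unadjusted p = 0.122). Rfc3 stood at 9.54 and 17.0 CPM in sham control, at 3.58 in the uninjured library and at 39.2, 18.5 and 16.4 in injured (log2 fold change 0.90 ± 0.71, SE; edgeR unadjusted p = 0.250). In each of these genes the lowest injured library fell below the higher sham control library. Rfc4 stood at 9.27 CPM in sham control 1, at 0 in sham control 2, at 7.03 in the uninjured library and at 17.4, 14.6 and 9.29 in injured (log2 fold change 1.57 ± 1.97, SE; edgeR unadjusted p = 0.451), with sham control 1 and injured 3 all but equal.

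The polymerase genes showed the least difference of any role, with a median log2 fold change of 0.29 and 4 of 6 above 0 (53.7% of all genes). Pola2, the regulatory subunit of DNA polymerase alpha, stood at 7.84 and 6.96 CPM in sham control, at 12.9 in the uninjured library and at 35.2, 13.9 and 10.2 in injured, a log2 fold change of 1.42 ± 0.82 (SE; edgeR unadjusted p = 0.129). It was the 1 gene of the 22 for which the uninjured library reached into the injured range. Pold1, the catalytic subunit of polymerase delta, stood at 19.5 and 15.2 CPM in sham control, at 12.6 in the uninjured library and at 43.8, 24.5 and 20.6 in injured, a log2 fold change of 0.77 ± 0.59 (SE; edgeR unadjusted p = 0.233), with no overlap.

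Injured 1 went its own way for 5 genes. Prim1, the catalytic subunit of primase, stood at 2.76 and 7.48 CPM in sham control, at 0.657 in the uninjured library and at 0.249, 12.0 and 10.5 in injured 1, 2 and 3, a log2 fold change of 0.57 ± 1.63 (SE; edgeR unadjusted p = 0.739). Pole, the leading-strand polymerase, stood at 0.249 CPM in injured 1 against 11.2 and 11.9 in injured 2 and 3, and its partner subunit Pole2 at a count of 0 against 5.19 and 6.21. Cdc7 was at 0 and Mcm10 at 0.317 CPM in injured 1, against 21.7 and 6.23 and against 6.44 and 5.74 CPM in injured 2 and 3. No member was under 0.5 CPM in injured 2 or 3. Yet injured 1 was the highest injured library for 28 of the 47 genes, so its low values were limited to some members.

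On the lagging strand, flap endonuclease Fen1 and ligase Lig1, which process and seal Okazaki fragments, separated the groups. Lig1 stood at 7.57 and 7.37 CPM in sham control, at 3.51 in the uninjured library and at 17.2, 35.6 and 21.8 in injured, a log2 fold change of 1.74 ± 0.70 (SE; edgeR unadjusted p = 0.0433). Fen1 stood at 8.38 and 14.1 CPM in sham control, at 5.74 in the uninjured library and at 41.4, 18.5 and 27.3 in injured, a log2 fold change of 1.37 ± 0.66 (SE; edgeR unadjusted p = 0.0777). Both had every injured library above every control. Rpa1, the large subunit of the single-strand binding protein, stood at 32.9 and 38.1 CPM in sham control, at 33.8 in the uninjured library and at 27.3, 31.4 and 26.1 in injured, a log2 fold change of -0.33 ± 0.43 (SE; edgeR unadjusted p = 0.464). It was the 1 member with every injured library below every control, and its coefficient of variation over the injured libraries, 9.87%, was the lowest of the 47 genes. Rpa2, its partner subunit, overlapped between groups, with 1.22 CPM in the uninjured library against 13.3 to 37.1 in injured.

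All 5 genes of nucleotide supply had a log2 fold change above 0 (53.7% of all genes), with a median of 1.19. Thymidylate synthase (Tyms), which makes thymidine monophosphate, stood at 8.08 and 12.5 CPM in sham control, at 7.30 in the uninjured library and at 76.0, 36.2 and 27.7 in injured, a log2 fold change of 2.18 ± 0.66 (SE; edgeR unadjusted p = 0.0135). Rrm2, the subunit of ribonucleotide reductase made in S phase, stood at 13.4 and 35.2 CPM in sham control, at 0.901 in the uninjured library and at 44.2, 51.6 and 81.1 in injured, a log2 fold change of 1.28 ± 0.59 (SE; edgeR unadjusted p = 0.0696). The dUTPase gene Dut stood at 15.2 and 37.8 CPM in sham control, at 9.54 in the uninjured library and at 63.6, 53.9 and 40.4 in injured, a log2 fold change of 0.99 ± 0.56 (SE; edgeR unadjusted p = 0.118). None of these 3 genes overlapped between injured and control libraries. Rrm1, the reductase subunit that is present through the cycle, did overlap, at 57.9 to 81.7 CPM in injured and 37.2 to 69.1 in sham control. Thymidine kinase (Tk1) stood at 30.6 to 66.2 CPM in injured, at 32.9 and 9.11 in sham control and at 0 in the uninjured library.

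Cyclin E drives entry into S phase with Cdk2, and its 2 genes differed from each other. Ccne2 stood at 0.514 and 0.331 CPM in sham control, at 1.07 in the uninjured library and at 10.3, 5.93 and 5.87 in injured, a log2 fold change of 4.11 ± 1.55 (SE; edgeR unadjusted p = 0.0335; DESeq2 adjusted p = 0.00482). The injured mean was 17.4 times that of sham control. Ccne1 stood at 7.11 CPM in sham control 1, at 0.414 in sham control 2, at 0 in the uninjured library and at 6.02, 11.4 and 12.0 in injured, a log2 fold change of 1.38 ± 1.45 (SE; edgeR unadjusted p = 0.372), with sham control 1 inside the injured range. E2f1, the transcription factor whose targets include many of these genes, stood at 17.1 and 14.8 CPM in sham control, at 0.755 in the uninjured library and at 58.5, 17.4 and 20.1 in injured, a log2 fold change of 1.01 ± 0.73 (SE; edgeR unadjusted p = 0.208). Its injured libraries exceeded the controls, but injured 2 was close to sham control 1.

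The fork protection and control genes stood furthest apart. Timeless, part of the complex that holds helicase and polymerase together, had a count of 0 in both sham control libraries, 1 count in the uninjured library and 6.02, 16.6 and 11.0 CPM in injured 1, 2 and 3. Its injured mean was at least 273-fold above the floor of 3 counts over the sham control group (edgeR unadjusted p = 0.00184; DESeq2 adjusted p = 1.04e-06). Against all non-injured libraries the ratio of pooled counts was 1345, with an exact 95% counting interval of 241 to 53147. Dtl (Cdt2), the adaptor that marks Cdt1 for destruction in S phase, had 2 counts in each sham control library, 11 in the uninjured library, and 32.5, 9.36 and 12.5 CPM in injured, a log2 fold change of 8.30 ± 1.44 (SE; edgeR unadjusted p = 0.000736; DESeq2 adjusted p = 2.87e-09). Dtl had the smallest p of the 47 genes against sham control, and its edgeR adjusted p was 0.696. Claspin (Clspn), the checkpoint mediator, stood at 3.08 CPM in sham control 1, at 0 in sham control 2, at 0.219 in the uninjured library and at 6.59, 3.78 and 9.14 in injured, a log2 fold change of 2.08 ± 2.24 (SE; edgeR unadjusted p = 0.386).

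**Figure D4:**
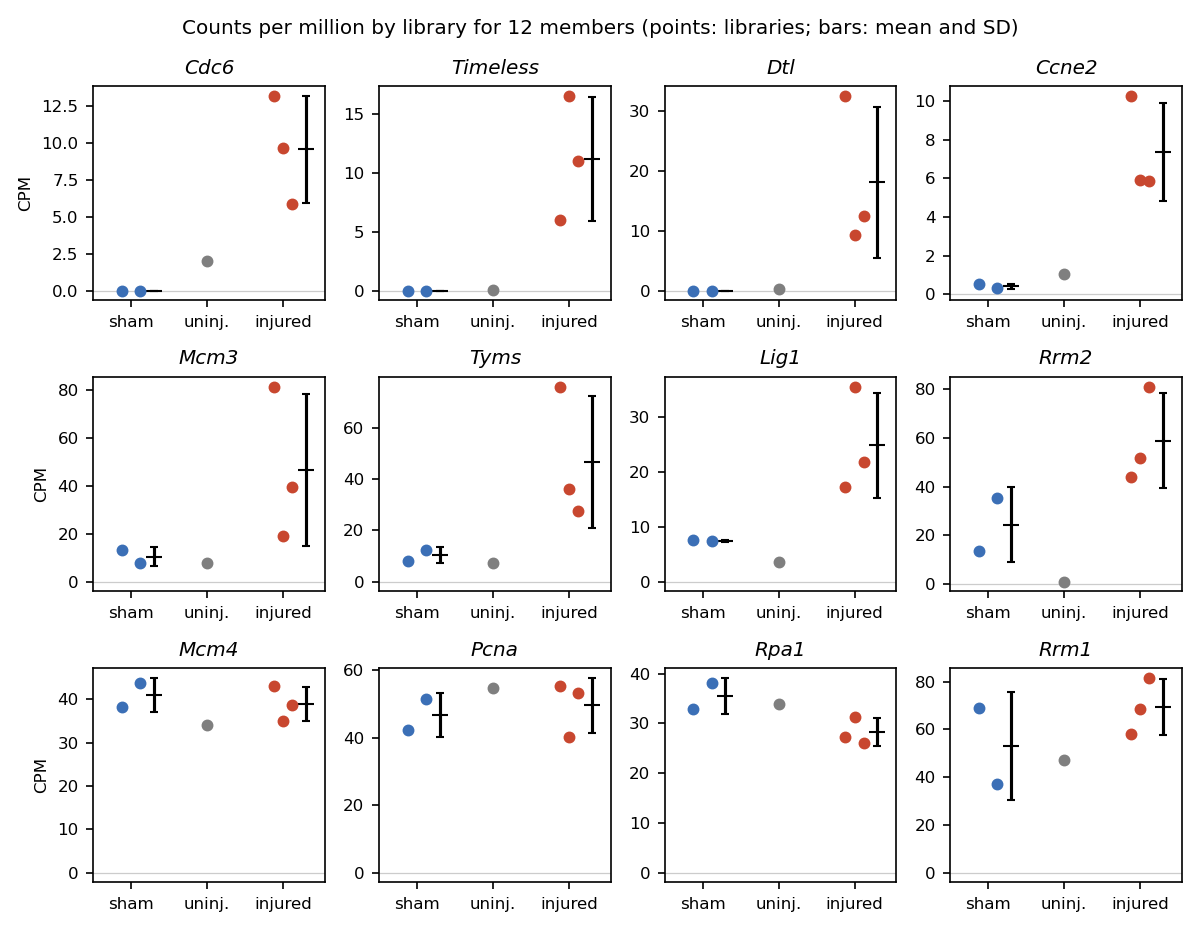
CPM of 12 of the 47 genes by library, with the mean and SD of groups of more than 1 library beside the points. In the top row the control libraries lie at or near 0, in the middle row the injured libraries lie above all controls, and in the bottom row the injured values lie within 26.1 to 81.7 CPM, near or among the controls.

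Of the genes that copy chromatin, Uhrf1, which brings the maintenance methyltransferase to freshly copied DNA, had the largest difference. It stood at 20.8 and 6.60 CPM in sham control, at 4.60 in the uninjured library and at 47.4, 47.2 and 25.4 in injured, a log2 fold change of 1.54 ± 0.70 (SE; edgeR unadjusted p = 0.0632). Dnmt1, that methyltransferase, stood at 46.2 and 28.9 CPM in sham control, at 7.77 in the uninjured library and at 63.6, 39.9 and 46.7 in injured (log2 fold change 0.41 ± 0.47, SE; edgeR unadjusted p = 0.406). Chaf1a, the large subunit of the histone chaperone CAF-1, stood at 10.5 CPM in both sham control libraries, at 0.609 in the uninjured library and at 19.3, 9.56 and 13.9 in injured (log2 fold change 0.45 ± 0.80, SE; edgeR unadjusted p = 0.596). Chaf1b, another CAF-1 gene, had a log2 fold change of -0.32. It stood at 38.4 and 12.1 CPM in sham control, at 4.58 in the uninjured library and at 32.6, 15.5 and 12.5 in injured. Dnmt1, Chaf1a and Chaf1b overlapped between injured and sham control, while each was lowest in the uninjured library.

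The 18 members for which no p is given above had unadjusted p from 0.131 to 0.997 against sham control and an adjusted p of at least 0.865 by edgeR. Variation over the injured libraries ran from a coefficient of variation of 9.87% (Rpa1) to 120% (Cdc7), with a median of 38.4%.

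With the uninjured library added to sham control, 3 injured libraries were set against 3 non-injured ones. The 2 comparisons share the injured and sham control libraries and are no independent evidence of each other. Here 42 of 47 genes had a log2 fold change above 0 (50.1% of all 14110 genes tested), the median was 1.26 against 0.00 over all genes, and for 21 genes every injured library exceeded every non-injured one, and for 1, again Rpa1, all lay below (9.23% and 7.07% of all genes). A log2 fold change above 1 was seen in 27 members and above 2 in 11, against 12.4% and 4.12% of all genes. By edgeR 0 genes passed (0% of all genes; smallest adjusted p among members 0.295), and 12 had an unadjusted p under 0.05, all higher in injured (of all genes 3.71% were higher and 3.72% lower): Mcm3, Mcm5, Cdc45, Rfc5, Fen1, Lig1, Tyms, Dut, Ccne2, Timeless, Dtl and Uhrf1. The 12 became 5 without injured 1 (3.63% of all genes higher) and 6 without injured 2 (2.77%).

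DESeq2 called 5 members here, all higher (of all genes 1.01% were called higher and 1.48% lower), and limma-voom 0 (0.0496% of all genes), as did edgeR without the filter (0.0258%). The 5 were Mcm3 (adjusted p = 0.0482), Tyms (0.0105), Ccne2 (0.0195), Timeless (7.74e-08) and Dtl (4.60e-09). Tyms stood at 46.6 ± 25.8 CPM in injured against 9.31 ± 2.82 in non-injured libraries (SD, n = 3 each), a log2 fold change of 2.32 ± 0.54 (SE; edgeR unadjusted p = 0.00323). Mcm3 stood at 46.8 ± 31.8 against 9.66 ± 3.11 CPM (SD, n = 3 each), a log2 fold change of 2.27 ± 0.62 (SE; edgeR unadjusted p = 0.00740). In Cdc6 the DESeq2 call of the first comparison was absent here (adjusted p = 0.532).

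The uninjured library, which has no replicate, stood below both sham control libraries for 26 of the 47 genes, above both for 7 and between them for 14. It was below all injured libraries for 37. It was the lowest of the 6 libraries, ties included, for 27 genes, among them Mcm2, Rrm2, E2f1, Rpa2, Tk1, Ccne1 and Chaf1a. The 7 genes above both sham control libraries were Pcna, Cdc6, Ccne2, Timeless, Dtl, Pola1 and Pola2. The low levels were not shared by all replication genes: Pcna, Mcm4 and Mcm6 stood near their levels in the other control libraries, and the mean level of 46 further replication genes was 3.03 log2(CPM + 1) in the uninjured library against 3.03 and 3.13 in sham control.

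Levels of other genes of replication, from a list of 46 that shares no gene with the 47, were also higher in injured cells, by less. Their mean level was 3.69 ± 0.26 (SD, n = 3) against 3.08 ± 0.07 (SD, n = 2) log2(CPM + 1) in sham control. A log2 fold change above 0 was seen in 35 of 46 (53.7% of all genes), with a median of 0.53. By edgeR 3 had an unadjusted p under 0.05, all higher (2.44% of all genes were), and 0 passed. DESeq2 called 1, which was higher (1.43% of all genes). The 3 were Asf1b, a histone chaperone, Wdhd1, which links helicase and polymerase alpha, and Mcm8, a helicase of recombination that had no count in sham control or injured 1. Asf1b stood at 8.49 and 5.74 CPM in sham control, at 4.55 in the uninjured library and at 37.6, 28.4 and 19.5 in injured, and Wdhd1 at 0 and 0.304, at 0.511, and at 7.22, 7.89 and 8.22 CPM in the same order.

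Regulators of the Rb and E2F switch were little different. Of 16, 10 had a log2 fold change above 0, or 62.5%, near the 53.7% of all genes, with a median of 0.39. By edgeR 1 had an unadjusted p under 0.05 (E2f6, higher, as were 2.44% of all genes), and 0 passed edgeR or DESeq2. E2f6 stood at 31.4 CPM in the uninjured library, above its 24.8, 8.09 and 15.0 in injured 1, 2 and 3. Against all non-injured libraries its log2 fold change was 0.41 (edgeR unadjusted p = 0.744). Cdk4, the kinase that phosphorylates Rb in G1, stood at 179, 155 and 153 CPM in injured against 89.8 and 104 in sham control and 70.3 in the uninjured library. Mitosis markers stood further apart than the replication genes: 13 of 14 had a log2 fold change above 0 (53.7% of all genes), with a median of 2.05. By edgeR 7 had an unadjusted p under 0.05, all higher (2.44% of all genes were), and 0 passed. DESeq2 called 3, all higher (1.43% of all genes). Their mean level was 5.05 ± 0.39 (SD, n = 3) in injured against 3.70 and 1.96 log2(CPM + 1) in sham control 1 and 2 and 1.12 in the uninjured library, so that the sham control libraries differed more in mitosis than in replication genes.

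Markers of blood and vessel cells varied between libraries of a group. Summed over 12 genes, neutrophil markers stood at 11092 and 558 CPM in sham control 1 and 2, at 929 in the uninjured library and at 6871, 903 and 95.4 in injured 1, 2 and 3. Lcn2 alone made up 535 of the 558 CPM in sham control 2 and 90.9 of the 95.4 CPM in injured 3. Mpo and Elane, made by neutrophil precursors, stood at 592 and 196 CPM in sham control 1, at 248 and 142 in injured 1 and at 53.1 and 43.3 in injured 2. They were at 0 in sham control 2 and the uninjured library and at or below 0.0856 CPM in injured 3. Macrophage markers (12 genes) summed to 47.3 to 2987 CPM in sham control and 38.4 to 4936 in injured, and erythroid markers (10 genes found of 12) to 1.19 to 38763 and 7.60 to 6076.

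Lymphocyte markers (12 genes) summed to 0.0828 to 81.8 CPM in sham control and 0.364 to 49.7 in injured, endothelial markers (12 genes) to 0.746 to 2148 and 91.6 to 428, and Schwann cell markers (10 genes) to 923 to 5439 and 376 to 619. Against sham control 0 of 12 neutrophil, 0 of 12 macrophage and 0 of 12 endothelial genes had an unadjusted p under 0.05 by edgeR or passed DESeq2. By direction, 12 of 12 endothelial and 11 of 12 neutrophil genes had a log2 fold change below 0, with medians of -2.17 and -1.36. Of macrophage genes 10 of 12 lay above 0 (53.7% of all genes), with a median of 0.57. Endothelial markers summed to 935 CPM in the uninjured library. Schwann cell markers were lower in injured, with 7 of 10 at an unadjusted p under 0.05 (2.2% of all genes were lower) and 4 called by DESeq2 (0.77%). Of erythroid markers 1 of 7 tested was lower by both measures. Of lymphocyte markers 1 of 9 tested was called higher by DESeq2 (1.43% of all genes). Fewer Schwann cell transcripts thus moved with the injured group. The part of any of these cell types in the result was not tested.

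The mean replication level was 3.34 in sham control 1 and 4.29 log2(CPM + 1) in injured 1, the libraries with the most neutrophil transcripts, and 3.14, 2.24 and 4.17 in sham control 2, the uninjured library and injured 3, where Mpo and Elane were at or near 0. Summed over all 12 neutrophil markers, however, the uninjured library (929 CPM) was near injured 2 (903 CPM), whose mean replication level was 4.19. The part of neutrophils and their precursors in the result was not tested. Without both sham control 1 and injured 1, an alternative chosen after seeing the data, the median log2 fold change of the 47 genes was 0.79 against 0.20 over all genes, and 0 passed edgeR. In that fit 34 genes had both injured libraries above the 1 sham control library left, as did 38.6% of all genes, and 15 had an unadjusted p under 0.05 against 7.33% of all genes. The spread there comes from the 2 injured libraries alone, and the lone sham control library is assumed to vary like them.

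**Figure D5:**
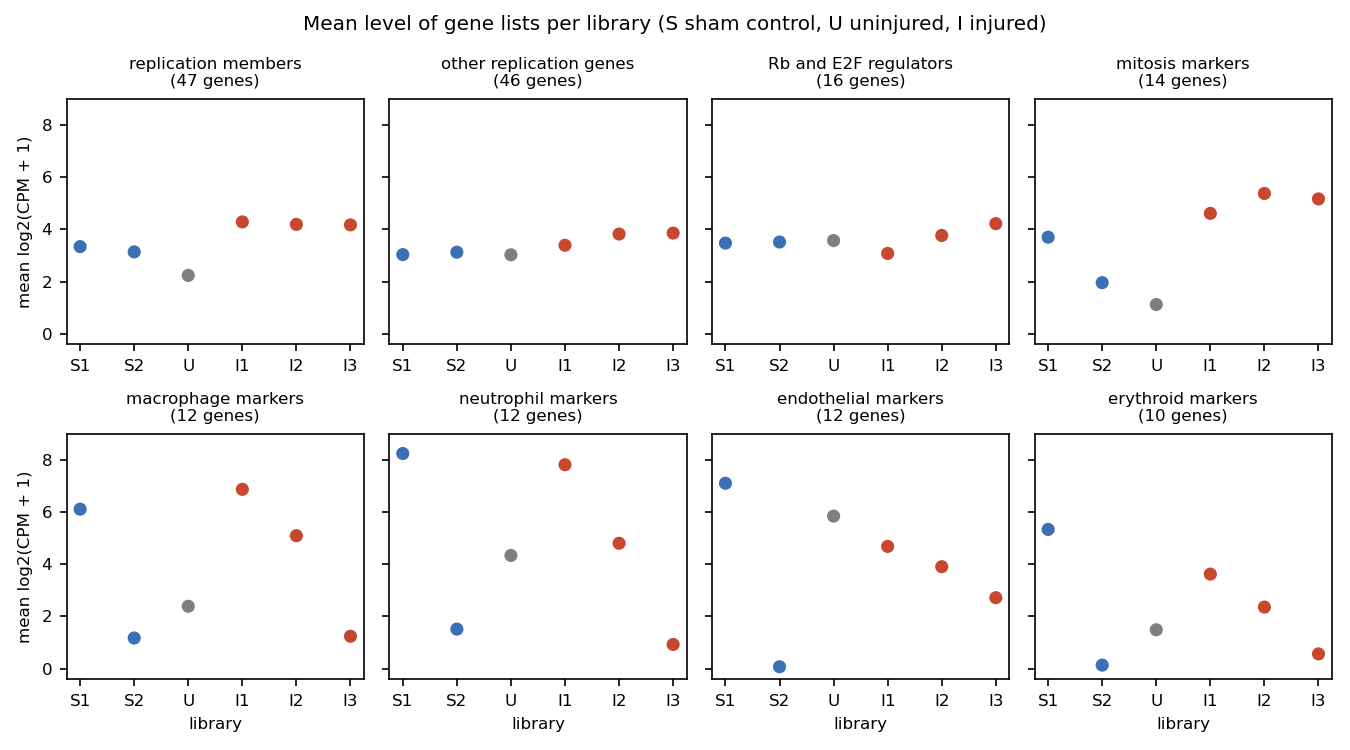
Mean log2(CPM + 1) of gene lists in each library. Replication genes and mitosis markers are higher in all 3 injured libraries than in all controls, whereas macrophage, neutrophil, endothelial and erythroid markers vary between libraries of the same group.

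Because the replication genes are known as E2F targets, their promoters were searched for the E2F consensus. RefSeq promoters of build GRCm38.p6, which hold 250 bases before and 50 after each start site, were found for 40 of the 47 genes. The consensus was read as TTTCCCGC, TTTCGCGC, TTTGCCGC or TTTGGCGC on either strand, and words may overlap. Of the 40 genes 17 held it in any promoter, or 42.5%, against 3.29% of 17492 protein-coding genes and 2.60% of all 27025 genes with a promoter. It was also in 7 of 13 Rb and E2F regulators (53.8%) and in 10 of 36 other replication genes (27.8%), so it was not limited to the 47 genes. The median share of G and C bases, taking each gene's richest promoter, was 62.2% for the 40 genes and 57.3% for protein-coding genes. Promoters of like G and C share were not compared. The stretches below show the consensus, with the E2F letters in capitals, in members that were near 0 in sham control (Cdc6, Dtl), that differed several-fold (Mcm5, Uhrf1) and that differed little (Mcm6, Dnmt1). Each ends before a start site of its gene and is written 5′ to 3′ along the gene. Uhrf1 and Dnmt1 have further promoters, in which the letters were not found.
Cdc6, chr11:98907987-98908046, plus strand: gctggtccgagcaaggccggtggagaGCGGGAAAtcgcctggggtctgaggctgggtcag
Dtl, chr1:191575545-191575604, minus strand: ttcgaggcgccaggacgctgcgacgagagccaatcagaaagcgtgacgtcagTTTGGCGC
Mcm5, chr8:75109334-75109393, plus strand: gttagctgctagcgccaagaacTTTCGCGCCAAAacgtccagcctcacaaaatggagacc
Uhrf1, chr17:56304102-56304161, plus strand: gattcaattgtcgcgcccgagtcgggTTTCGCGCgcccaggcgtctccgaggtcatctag
Mcm6, chr1:128359719-128359778, minus strand: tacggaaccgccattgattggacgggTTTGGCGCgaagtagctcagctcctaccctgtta
Dnmt1, chr9:20952809-20952868, minus strand: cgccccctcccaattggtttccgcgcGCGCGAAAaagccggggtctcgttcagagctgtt

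In the Mcm5 stretch 2 matches on opposite strands overlap. The letters were found in members that stood apart and in members that did not: the 17 genes with them had a median log2 fold change of 1.34 against sham control, with 9 above both sham control libraries, and the 23 without had 1.07 and 10. Against all non-injured libraries the medians were in the other order, 1.29 with the letters and 1.33 without. Timeless, Tyms and Mcm2 were among the 23, which says only that these letters are not in this window.

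Replication and mitosis genes held different letters. CCAAT, the box bound by NF-Y, stood in a promoter of 57.5% of the 40 genes and of 42.3% of protein-coding genes. TTTGAA, the cell cycle homology region of late cell cycle genes, stood in 15.0% and 18.5%. Of 12 mitosis markers with a promoter, 91.7% held CCAAT, 75.0% held TTTGAA and 8.33% the E2F consensus. A match is a description of the sequence and not evidence of binding.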

How the data were processed

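The submitters' processing notes name DESeq, DESeq2 1.22.2 and Salmon 0.12.0 as tools, and mm9 and GRCm38.p6 as builds, without a role; the sources used here do not say how estimates were summed to genes or whether strand was used. The deposited table holds whole-number counts per gene symbol, taken as the authors' unscaled counts because column totals differ. Of 26130 genes, 6714 had no count and 26 carry spreadsheet dates for names. Counts were scaled by TMM and filtered with filterByExpr (minimum count 10), and all genes were tested with edgeR 4.0.16 (quasi-likelihood F test, R 4.3.3, Benjamini-Hochberg, threshold 0.05). Injured was compared with sham control in 1 fit of 3 groups (3 residual degrees of freedom) and with all non-injured libraries (4). SEs derive from the F statistic. Lower bounds use 3 counts over the control group, and intervals (95%, exact) cover counting error only. DESeq2 1.42.0, limma-voom 3.58.1, other scalings, no filter, leaving out libraries and a replicate block were alternatives. The edgeR step was tested on simulated data. Statistics are given for up to 3 members of each role with the smallest p against sham control, members called by any tool, Pcna, Mcm2, E2f1 and Dnmt1; for other lists, a few with the smallest p. Cdk4, Mpo, Elane and the genes in figures and promoter stretches were chosen after values were seen. Members and lists were chosen with earlier results of these data known. Promoters and gene start sites come from RefSeq tables of GRCm38.p6 and lengths from GENCODE M21; no coordinate comes from the counts.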

Additional observations from a re-analysis of the deposited data

How the results depend on the processing

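Over the alternatives 89 of 104 summary values stayed within a set tolerance of the main value and 15 moved outside it. No median changed sign. DESeq2 called 4 members against sham control and 5 against all non-injured libraries where edgeR called 0. Members with an unadjusted p under 0.05 against all non-injured libraries numbered 20 by limma-voom (5.27% of all genes were higher) and 6 with the replicate block (1.57%). Without both sham control 1 and injured 1, an alternative added after seeing the data, they numbered 15 against sham control, and members above all controls 34 (sham control) and 32 (all non-injured), against 38.6% and 23.9% of all genes in those fits, which have fewer libraries to separate. With pseudocounts of 0.1 and 5 CPM the mean member level was 2.68 and 3.96 in sham control and 4.04 and 4.61 in injured. With library sizes as the only scaling, the median of all genes went from 0.09 to 0.23 and that of the members to 1.15. The difference was 0.92 in either case. With that scaling 42 members lay above 0 (59.6% of all genes), and with relative log expression 38 (51.0%). Leaving out 1 library in turn, the median log2 fold change of members ran from 0.71 (without sham control 2) to 1.06 against sham control. Against all non-injured libraries it ran from 0.99 to 1.46. In fits that kept both sham control libraries, members with an unadjusted p under 0.05 against sham control ran from 5 without injured 1 (2.32% of all genes higher) to 9 without the uninjured library (3.24%). Members above both sham control libraries there ran from 22 without the uninjured library (12.9% of all genes) to 29 without injured 2 (16.8%). Against all non-injured libraries, the count at that p ran from 5 without injured 1 (3.63%) to 13 without sham control 1 (5.80%). Members above all of those controls ran from 22 without the uninjured library (12.9%) to 29 without sham control 1 (16.3%). By edgeR 0 members were called in these fits.

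Of the 29 genes with full statistics, Pcna and Prim1 changed sign, none past a threshold. Among the other 18, Pola1 against sham control (0.00416 by edgeR, -0.09 by DESeq2) and Mcm4 against all non-injured libraries (0.00184, -0.05) did so too; not every alternative was run for these 18. Pcna turned to -0.14 against sham control without both sham control 1 and injured 1, and against all non-injured libraries to 0.0349 with library size alone, 0.00408 without a filter and 0.0111 with the replicate block. Without sham control 1 and without injured 1 it was -0.0553 and -0.00386 against sham control. Against all non-injured libraries it ran from -0.100 without sham control 1 to 0.119 without injured 2, and was also positive without sham control 2 (0.0306) and without the uninjured library (0.0757). Prim1 turned to -0.27 by limma-voom, and to -1.35 against sham control and -1.36 against all non-injured libraries with the replicate block. The cause was not tested.

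The titles number the sham control and injured libraries, but only 1 and 2 are shared and the description fields carry other numbers. Across genes, deviations from group means correlated at 0.353 between sham control 1 and injured 1. The value was 0.0107 between sham control 2 and injured 2, and 0.434 between sham control 2 and injured 3, which share no number. With 2 sham control libraries their deviations are equal and opposite, so these values cannot tell whether samples were paired. With the replicate block 6 members in place of 9 had an unadjusted p under 0.05 against sham control, with a median of 1.13. Of all genes, 1.33% in place of 2.44% were higher at that p. With 2 sham control libraries and 1 uninjured library, depth was not the limit for most members, but a count of 0 allows up to 0.0828 CPM in sham control 2, and the small RNA input limits what a 0 can show.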
